A study of Mus musculus with 8 samples.

Results

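β-cells differ in how much of their RNA is insulin, and the cells described here are those at both extremes of that share. From the 1240 cells of 8 islet samples, 1232 cells had at most 3000 genes and 20000 unique molecular identifiers (UMIs, which count captured RNA molecules), and 923 of these were taken as β-cells because Ins1 and Ins2 made up at least 20% of their UMIs and Gcg, Sst and Ppy each made up less than 5%. Within each sample the β-cells were ranked by (Ins1 + Ins2)/total UMIs and split into 4 parts of like size. The members are the 229 cells of the highest part, here the top set, and the 229 cells of the lowest part, the bottom set, 458 of 923 β-cells in all and selected on these values. The control group held 4 samples from 8-week-old mice that had no operation, with 368 β-cells and 182 members. The PPTx group held 4 samples from mice of the same age, 2 days after partial pancreatectomy with 50% of the pancreas removed, with 555 β-cells and 276 members. All mice were male C57BL/6J, and each sample pooled the islets of a single mouse or of a few mice, so the replicates stand for pools and their spread may be partly technical. The controls had no operation, so the resection and the surgery itself cannot be told apart. Per sample and set there were 13, 19, 30 and 29 cells in the controls and 24, 56, 25 and 33 cells in PPTx. The question put to these cells is which other genes differ between high-insulin and low-insulin β-cells once insulin itself is set aside, and whether PPTx changes that difference.

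Insulin is made as a preproinsulin whose signal peptide directs it through the translocon into the endoplasmic reticulum (ER). There it is folded by chaperones and oxidoreductases that form its disulfide bonds, and it then passes through the Golgi into granules where convertases cut it to insulin and C-peptide. Mice have a pair of insulin genes, Ins2 being the ancestral gene and Ins1 a retrocopy of it. Their messages are near-identical over much of their length, so the split of UMIs between them depends on how the authors' counting assigned shared reads.

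Because the members were chosen by the insulin share, their own shares are given as a description, with no test. The mean share in the bottom set was 48.3%, 51.4%, 57.4% and 52.8% in control replicates 1 to 4 and 48.7%, 43.1%, 50.0% and 52.7% in PPTx replicates 1 to 4. The mean share in the top set was 68.5%, 69.2%, 68.1% and 66.5% in the controls and 66.4%, 62.3%, 63.1% and 67.3% in PPTx. The limits of the sets moved with the sample. In PPTx replicate 2 the last cell inside the bottom set was at 47.49% and the first outside it at 47.51%, while the first cell inside the top set was at 58.03% and the last outside at 58.00%. In control replicate 3 the bottom set ended at 60.78% with the next cell at 60.84%, and the top set began at 65.47% with the next lower cell at 65.30%. A share of 60% therefore fell in the bottom set of control replicate 3 and in the top set of PPTx replicate 2, and the sets are ranks within a sample and not absolute classes of cell. Cells outside the β-cell gate had median shares of 0.292% to 2.14% per sample. A single cell barcode occurred in more than 1 sample.

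**Figure D1:**
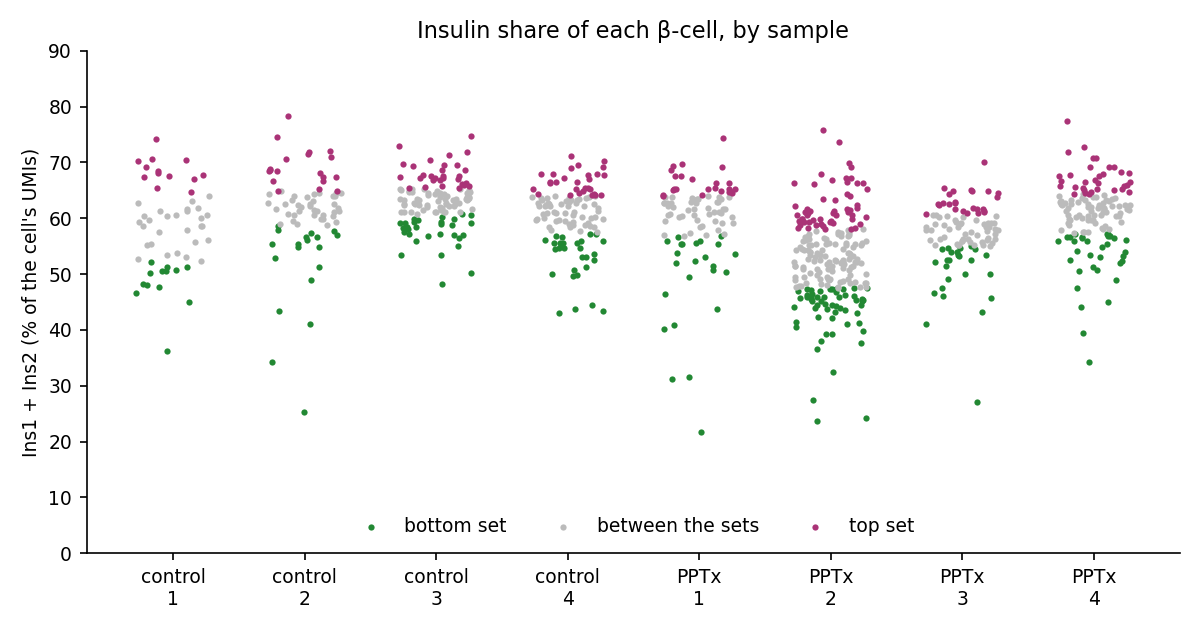
Insulin share of the 923 β-cells, with 1 point per cell, the share of its UMIs from Ins1 and Ins2 on the vertical axis in percent, and the 8 samples on the horizontal axis. Cells of the bottom set are green, those of the top set purple and the rest grey. The cloud of PPTx replicate 2 lies lowest, with a median of 52.4%, and that of control replicate 3 highest, with a median of 63.3%.

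The top set carried fewer UMIs besides insulin as well as more insulin UMIs, which follows in part from the ranking and is given as a description. The median per cell of UMIs other than insulin was 1949, 2954, 3880.5 and 2633 in the bottom set of the controls against 1101, 1735, 2906.5 and 2241 in their top set. In PPTx it was 3710.5, 2959, 4426 and 1620 in the bottom against 2543, 1473.5, 3842 and 1222 in the top set. The median of insulin UMIs was higher in the top set in 7 of the 8 samples and lower in PPTx replicate 2, with 2343 against 2398.5 UMIs. All levels below were therefore scaled to the UMIs left after removing Ins1 and Ins2, and are given as CPM, the usual scaled count, with these UMIs as the total. The summed depth behind them ranged from 15424 to 182662 UMIs per sample and set, lowest in control replicate 1.

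Defining markers of β-cells were present in both sets. Iapp, the islet amyloid polypeptide that is stored with insulin, was at 110540 to 132009 CPM in the bottom and 102927 to 130244 CPM in the top set. Ucn3, a marker of mature β-cells, had medians over samples of 1120 and 1409 CPM in the bottom and top sets (807 and 701 UMIs). G6pc2, the islet glucose-6-phosphatase, had 4039 and 4695 CPM (3120 and 2446 UMIs). Slc2a2, the glucose transporter GLUT2, had 496 and 546 CPM (373 and 259 UMIs). Of the transcription factors, Nkx6-1 had 210 and 294 CPM (196 and 169 UMIs). Pdx1, with 12 and 5 UMIs, and Mafa, with 1 and 1 UMI, were too sparse to be tested. The ranges of the sets overlapped for each of these genes. The top set held fewer UMIs, so sums of UMIs in this paragraph do not compare levels. Markers of endothelial, immune and stellate cells were near 0. Of 6 endothelial markers, 4 had no UMI in the bottom set and 5 had none in the top set, of 6 immune markers 4 and 5 had none, and Pecam1 and Ptprc were at 0 in both sets. The 6 stellate markers summed to at most 137 CPM in any sample, and the 11 acinar markers to at most 564 CPM. The 6 ductal markers were not near 0, with medians of 405 CPM (275 to 1289) in the bottom and 450 CPM (194.5 to 549) in the top set. Of these, Krt7 had 254 and 209 UMIs in the bottom and top sets and Spp1 104 and 25, up to 808 CPM in a bottom set, while Sox9 had 2 and 0 and Cftr none. No doublet caller was run.

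Other endocrine RNA was not evenly spread over the members. In the bottom set 26 of 229 cells held at least 1% of their UMIs in Gcg, Sst, Ppy, Pyy and Ghrl together, against 1 of 229 in the top set. The share of such cells was higher in the bottom set in 7 of 8 samples, with a mean of 11.3% ± 6.43 (SD, n = 8), and control replicate 1 had none in either set. Cells with at least 2 UMIs over 10 replication markers (Birc5, Ccna2, Cdca8, Cdk1, Cenpa, Mki67, Nusap1, Top2a, Tpx2 and Ube2c) numbered 21 in the bottom and 8 in the top set. Their share had a mean of 8.59% ± 3.25 in the bottom and 3.17% ± 7.05 in the top set (SD, n = 8). It was higher in the bottom set in 7 of 8 samples, but in control replicates 1, 2 and 3 by 1 cell against 0. PPTx replicate 3 went the other way with 2 cells in the bottom and 5 in the top set, 20% of its top set. No member was of both kinds, which left 182 cells of the bottom and 220 cells of the top set that were of neither kind. The bottom set is the deeper of the pair in UMIs other than insulin, and a fixed minimum of UMIs is passed more readily in a deeper cell, an effect whose part in the count of replicating cells was not tested. The counts between the sets and for PPTx are given with and without these cells. Levels given below for a kind of cell are sums pooled over the cells of all samples and both groups. They have no spread over samples and are a description with no test.

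The part that Ins1 took of the insulin UMIs is made of the counts on which the cells were ranked and is a description with no test. Its part was 12.4%, 14.1%, 16.2% and 9.05% in the bottom set of the controls and 10.96%, 15.2%, 17.6% and 8.96% in their top set. In PPTx it was 16.3%, 10.7%, 16.7% and 13.3% in the bottom and 17.4%, 9.32%, 18.6% and 13.3% in the top set. Samples differed from each other far more than the sets of a sample did. The mean difference was 0.297 percentage points ± 1.27 (SD, n = 8), higher in the top set in 4 of 8 samples. The difference was 0.226 points in the controls and 0.368 points in PPTx. The promoter of Ins1 is shown because its message is part of the value on which cells were ranked. It spans the 250 bases before and the 50 bases after the annotated start, from RefSeq on build GRCm38.p6, the build of mm10, at chr19:52264047-52264346 on the plus strand, and capitals mark matches of the searched motifs on either strand. The motifs were TAAT, a core of homeodomain sites, CCAAT, the core of the CCAAT box, CCACG, a part of ER stress elements, and CACGTG, the E-box.
Ins1: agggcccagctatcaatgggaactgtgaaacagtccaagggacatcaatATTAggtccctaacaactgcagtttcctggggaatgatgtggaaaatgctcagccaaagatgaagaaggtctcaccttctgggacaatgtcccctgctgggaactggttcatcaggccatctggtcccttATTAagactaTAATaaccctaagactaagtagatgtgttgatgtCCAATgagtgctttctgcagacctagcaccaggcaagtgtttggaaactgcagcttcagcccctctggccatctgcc
It held 3 TAAT matches and 1 CCAAT match and neither CCACG nor CACGTG. Of the 32851 promoter windows of this length, 58% held TAAT, 37.4% CCAAT, 32.8% CCACG and 7.15% CACGTG, and the motifs CCACG and CACGTG can share bases.

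At equal depth, the number of genes detected in the remaining RNA differed between the extremes by less than the spread over samples. Each member was thinned to 1100 UMIs other than insulin, which left out 5 cells of the bottom and 50 of the top set (20 control and 35 PPTx cells). The mean number of genes per thinned cell was 755, 759, 768 and 747 in the bottom against 737, 742, 758 and 759 in the top set of the controls. In PPTx it was 741, 741, 752 and 722 in the bottom against 738, 738, 766 and 734 in the top set. The mean difference of top minus bottom was -1.56 genes ± 13.2 (SD, n = 8, p = 0.727, two-sided exact sign-flip test), with a higher value in the top set in 3 of 8 samples. Without thinning the top set had 398 fewer genes per cell (1236 against 1633), lower in 8 of 8 samples, which goes with its fewer UMIs and is given as a description. The difference was -8.16 genes in the controls and 5.04 genes in PPTx, 13.2 genes apart (p = 0.2, two-sided exact permutation test).

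The insulin share of PPTx samples overlapped with that of the controls, and since the share is the value on which cells were chosen and ranked, it is described without a test. The median share over all β-cells of a sample was 61.3% ± 1.80 (SD, n = 4) in the controls, from 59.0% to 63.3%, and 58.4% ± 4.34 (SD, n = 4) in PPTx, from 52.4% to 61.6%. Without PPTx replicate 2, the lowest sample, the difference of the medians was -0.983 points. The mean share of the top set was 68.1% ± 1.14 against 64.8% ± 2.45 and that of the bottom set 52.5% ± 3.79 against 48.6% ± 4.05 (SD, 4 samples each). The distance between the sets was 15.6 points in the controls and 16.2 points in PPTx.

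For all other genes, UMIs were summed per sample and set and put through the quasi-likelihood test of edgeR. The sample was a term of the fit, so each of 8 samples served as its own comparison. Of 1928 genes tested, 42 were called at an adjusted p under 0.05, 29 higher and 13 lower in the top set. This is 2.18% of the genes tested (1.5% higher and 0.674% lower), against which the counts within gene groups below are to be read. At an unadjusted p under 0.05 there were 221 genes. The median log2 fold change over all genes tested was 0.04. Scaling by TMM, which brings that median to -0.00214, left 26 calls, 11 higher and 15 lower, of which 24 were among the 42. The calls lost there were rises, those of Rplp0, Rplp1, Rpl36, Pcsk1n, Sec61b, H13, Edem2, Atpif1, Pkm, Abcc8, Ccnd2, Entpd3, Tmem160, Tmem229b, Gng12, Wnt4, Fam151a and Vstm2l, so the balance of higher against lower genes rests on the scaling while each of the 42 genes kept its direction. DESeq2 called 8 genes, 7 of them among the 42, namely Cox6a2, Tmem27, Gpx3, Txnip, Cd81, Arl6ip1 and Pyy, so that every other gene below loses its call there. The count was 19 without control replicate 2, 23 without PPTx replicate 1 and 24 without PPTx replicate 2, and lay between 29 and 52 when any other sample was left out. With Gcg, Sst and Ppy each held under 1% it was 40, of which 35 were among the 42, and without replicating cells it was 21. In a pair of settings chosen after seeing the data it was 26 without cells that held the 5 hormones together at 1% or more, and 12 without both kinds of cell. These 12 were Cox6a2, Tmem27, Fkbp11, Gpx3, Ttr, Tmem219, Fos, Nenf, Uqcc2, Rplp0, Rplp1 and Pcsk1n. When the sets were taken within 4 depth strata of each sample, ranges of UMIs other than insulin in which cells are alike but not equal in depth, 18 were called, 13 of them among the 42. Of the genes named below, Cox6a2, Tmem27, Fkbp11, Ttr, Cd81, Ero1lb, Arl6ip1, Fos, Prss53, Dbpht2, Mt2 and Gng12 were called there and all others lost their call. The genes named below are the 8 with the largest change each way and those of the gene groups, by a rule given with the processing. Calm2, H13, Vstm2l, Fam151a, Atpif1, Wnt4, Gng12 and Prss53 were called as well and are named outside that rule, having been chosen after their values were seen.

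**Figure D2:**
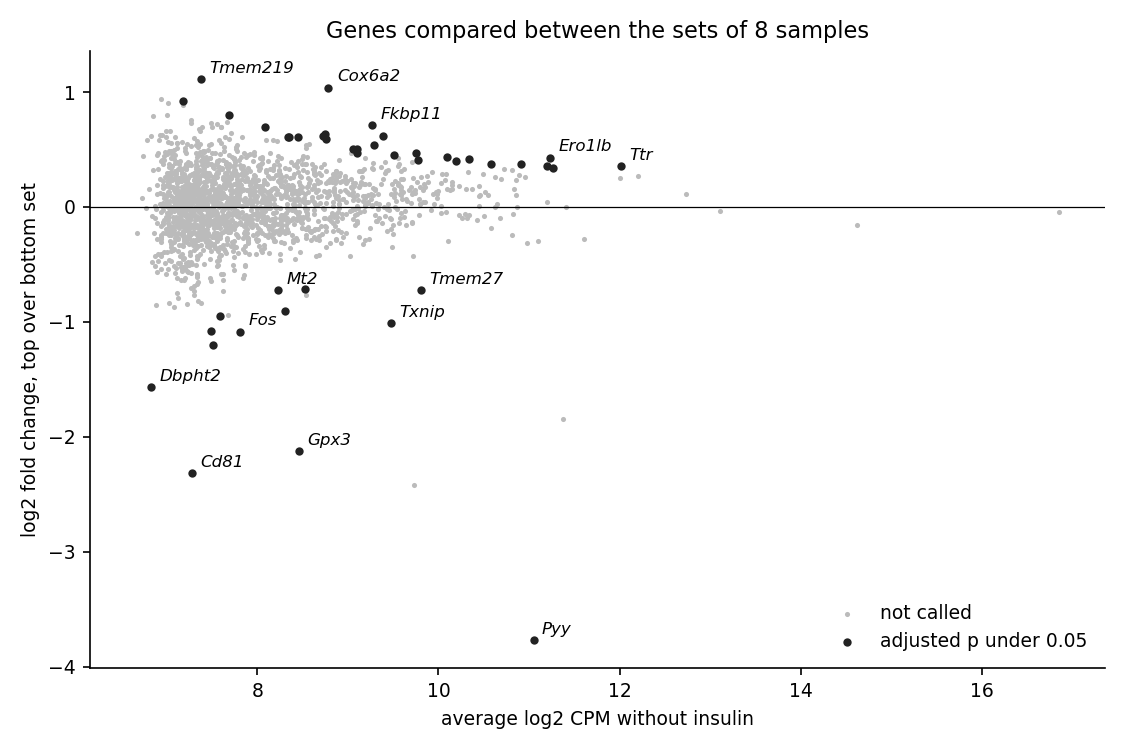
Log2 fold change of the top over the bottom set (vertical axis) against average log2 CPM without insulin (horizontal axis), with 1 point for each of the 1928 genes tested over 8 samples. The 42 genes called are black, with Pyy, Cd81 and Gpx3 lowest and Tmem219 and Cox6a2 highest.

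The largest differences were genes lower in high-insulin cells. Cd81, Gpx3, Pyy, Fos, Hspa1b, Tubb5, Arl6ip1, Ptges3 and Dbpht2 passed the filter on low counts within the bottom set only. They could thus enter the comparison of the sets through the set where they were high, and their calls carry that limit. Cd81, which encodes a tetraspanin of the cell surface, was at 80.5, 148, 145 and 181 CPM in the bottom set of the controls and at 389, 115, 266 and 184 CPM in that of PPTx. Its top-set levels were 0, 56.3, 64.3 and 0 CPM in the controls and 32.7, 22.9, 21.4 and 113 CPM in PPTx. Every sample was lower in its own top set, and the ranges of the sets met between 80.5 and 113 CPM, where PPTx replicate 4 stood above the other top sets. Cd81 fell by 2.32 ± 0.32 on the log2 scale (SE, adjusted p = 3.91e-09), although it rests on 140 UMIs in the bottom and 19 in the top set. It was called in each of the 21 settings in which it was tested. Gpx3, a secreted glutathione peroxidase, was at 201, 574, 316 and 846 CPM in the bottom set of the controls and at 706, 230, 605 and 459 CPM in that of PPTx. Its top-set levels were 0, 28.1, 171 and 134 CPM in the controls and 49.0, 103, 74.8 and 248 CPM in PPTx. It was lower in the top set in 8 of 8 samples, with overlap of the ranges only between 201 and 248 CPM, and fell by 2.12 ± 0.24 (SE, adjusted p = 2.83e-09). Ranked within depth strata it fell by 2.06 and did not pass (adjusted p = 0.157).

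In these pooled sums both genes were also higher in cells of the bottom set that held other hormones. In the bottom set Cd81 was at 453 CPM in the 26 cells with other hormones and at 175 CPM in the 182 cells of neither kind, against 40.4 CPM in the 220 cells of neither kind in the top set. Gpx3 was at 1760 and 333 CPM in those cells of the bottom and at 110 CPM in those of the top set. Without the cells that held other hormones Cd81 still fell by 2.06 (adjusted p = 1.3e-05). Without those and replicating cells Gpx3 fell by 1.65 (adjusted p = 1.58e-08), while Cd81 was then too sparse to be tested.

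Txnip encodes a thioredoxin-interacting protein that binds and restrains thioredoxin and is induced by glucose in β-cells. It was at 1128, 1130, 580 and 1015 CPM in the bottom set of the controls and at 1074, 695, 1209 and 496 CPM in that of PPTx. Its top-set levels were 389, 338, 568 and 402 CPM in the controls and 425, 400, 449 and 406 CPM in PPTx. The top sets lay close together, while the bottom set of PPTx replicate 4 lay within their range and that of control replicate 3 just above it. Txnip fell by 1.01 ± 0.14 (SE, adjusted p = 2.83e-09, lower in 8 of 8 samples). This size rested partly on cells with other hormones, in which it was at 2730 CPM. Without them the fall was 0.54 (adjusted p = 0.0363), and without replicating cells as well it was 0.51 and no longer passed (adjusted p = 0.0591). Ranked within depth strata, it fell by 0.79 and did not pass either (adjusted p = 0.0721). Its promoter is shown for the motifs in the window, at chr3:96557707-96558006 on the plus strand of GRCm38.p6, with capitals as for Ins1.
Txnip: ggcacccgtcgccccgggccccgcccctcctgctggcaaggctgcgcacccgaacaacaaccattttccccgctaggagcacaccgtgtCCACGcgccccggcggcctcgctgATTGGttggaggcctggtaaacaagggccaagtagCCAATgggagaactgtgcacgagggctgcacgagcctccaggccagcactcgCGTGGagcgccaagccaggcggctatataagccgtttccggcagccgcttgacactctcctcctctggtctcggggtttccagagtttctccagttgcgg
The window held 2 CCACG and 2 CCAAT matches on either strand and no TAAT or CACGTG.

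Tmem27, also known as collectrin, is a membrane glycoprotein of β-cells. It was at 966, 1037, 870 and 1088 CPM in the bottom set of the controls and at 1473, 1248, 898 and 844 CPM in that of PPTx. Its top-set levels were 584, 535, 546 and 596 CPM in the controls and 604, 903, 684 and 541 CPM in PPTx. The control samples did not overlap between sets, and among the PPTx samples only replicate 2 of the top set reached the lower bottom sets. Tmem27 fell by 0.73 ± 0.12 (SE, adjusted p = 1.79e-06) and was called in all 24 settings, with falls between 0.62 and 0.84. Without the cells with other hormones and the replicating cells it fell by 0.64 (adjusted p = 1.99e-04).

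**Figure D3:**
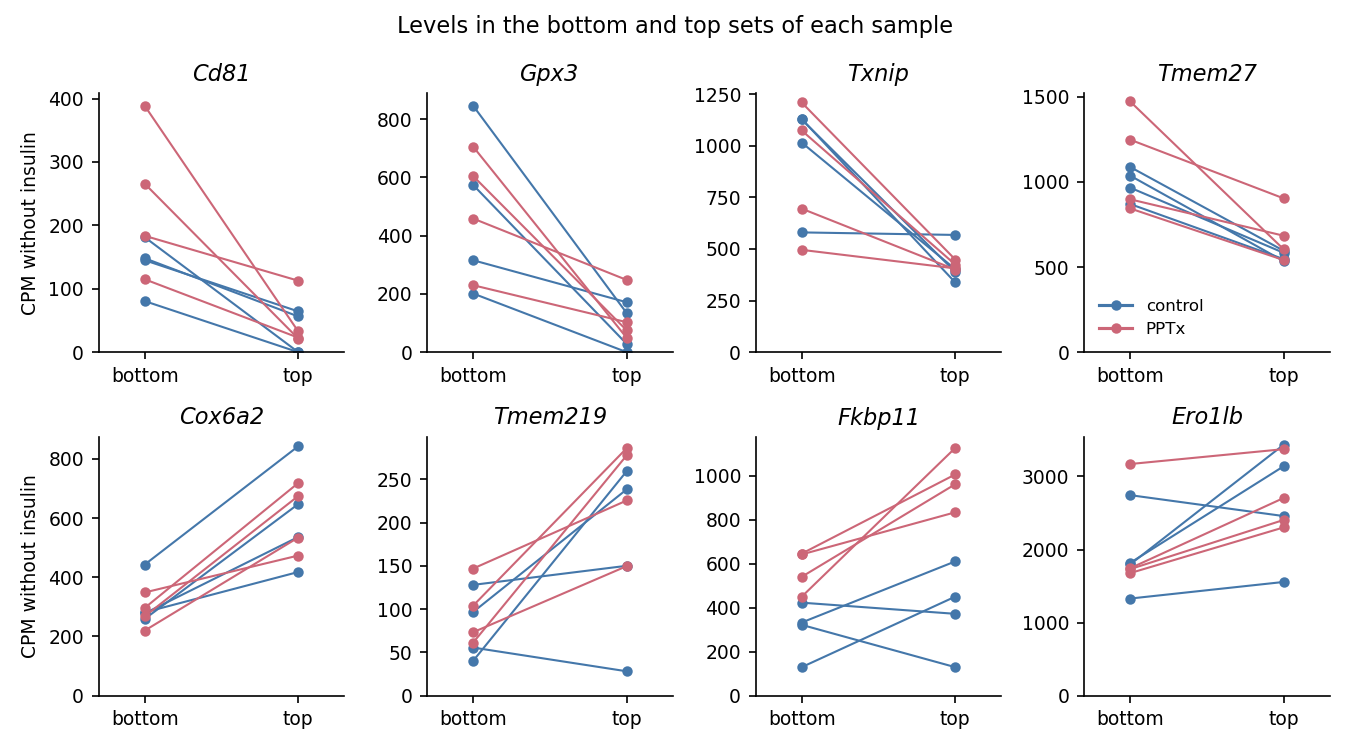
CPM without insulin (vertical axis, from 0) of 8 genes in the bottom and top sets (horizontal axis), with 1 line for each of 4 control (blue) and 4 PPTx (red) samples. Cd81, Gpx3, Txnip and Tmem27 are lower in the top set of every sample, Cox6a2 is higher in every one, and Tmem219, Fkbp11 and Ero1lb are higher in 7, 6 and 7 of 8.

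Of the other islet hormones, Pyy, Ppy and Sst had their highest levels in the bottom set, while Gcg did not. The rule capped Gcg, Sst and Ppy below 5% of UMIs but set no cap on Pyy, which encodes peptide YY. UMIs of Pyy are part of the total that divides the insulin UMIs, so a cell rich in Pyy ranks lower by the rule itself. The highest cell of the bottom set held 560 UMIs of Pyy, and the fall of Pyy is not independent of the ranking. Pyy was at 483, 2481, 785 and 3433 CPM in the bottom set of the controls and at 5287, 1489, 6771 and 8737 CPM in that of PPTx. Its top-set levels were 64.8, 56.3, 64.3 and 59.6 CPM in the controls and 1045, 343, 150 and 338 CPM in PPTx. It was lower in the top set in 8 of 8 samples and fell by 3.77 ± 0.48 (SE, adjusted p = 0.00921). A few cells carried it, since 5 of 229 cells held 50% of its 2526 UMIs in the bottom set. Without the cells in which the hormones reached 1% it was at -1.25 and did not pass (adjusted p = 0.472), nor did it within depth strata (-3.54, adjusted p = 0.0562). Since the rule capped the other hormones, their levels are a description with no test. Ppy, the pancreatic polypeptide, was at 282, 2944, 853 and 2768 CPM in the bottom and at 324, 253, 118 and 432 CPM in the top set of the controls. The PPTx samples had 8161, 2819, 3573 and 6461 CPM in the bottom and 8100, 1715, 449 and 789 CPM in the top set, so the top set was lower in 7 of 8 samples. Sst, somatostatin, was at 2491 and 5621 CPM in the bottom set of control replicates 3 and 4, at most 755 CPM in the other bottom sets and at most 366 CPM in every top set. Gcg, glucagon, had a median of 320 CPM over the 8 bottom sets (55.1 to 580) and of 391 CPM over the top sets (67.6 to 686), and was higher in the top set in 5 of 8 samples.

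Immediate early and heat-shock genes, which respond within minutes to stimulation and to tissue dispersion, had estimates below 0 in 8 of the 9 members tested. Of 25 genes in the list, 2 were called lower and none higher, with a median log2 fold change of -0.69 against 0.04 over all genes. In the fits within 1 set, 9 members passed the filter on low counts in the bottom and 4 in the top set (1860 and 1220 over all genes). Fos and Hspa1b passed it in the bottom set only. Members could thus enter the test through the set where they were high, so these counts and this median are a description. Fos, a subunit of the AP-1 transcription factor, was at 443, 296, 51.2 and 145 CPM in the bottom set of the controls and at 757, 334, 119 and 18.4 CPM in that of PPTx. In the top set it was at 130, 84.4, 118 and 104 CPM in the controls and at 212, 160, 0 and 90.2 CPM in PPTx. Fos fell by 1.09 ± 0.29 (SE, adjusted p = 0.0262), lower in 6 of 8 samples, with control replicate 3 and PPTx replicate 4 going the other way. The call was lost without control replicate 2, PPTx replicate 1 or PPTx replicate 2. Hspa1b, an inducible HSP70 that shares reads with its near-identical neighbour Hspa1a, fell by 1.08 ± 0.28 (SE, adjusted p = 0.0148), lower in 6 of 8 samples, and lost its call without control replicate 2, PPTx replicate 1 or PPTx replicate 3. Nor did Hspa1b pass without replicating cells (-0.89, adjusted p = 0.122), without cells that held other hormones (-1.01, adjusted p = 0.0502) or without both kinds (-0.91, adjusted p = 0.088). The same held within depth strata (-0.82, adjusted p = 0.123) and with larger sets, where its fall was 0.53. DESeq2 called neither Fos (-1.045, adjusted p = 0.561) nor Hspa1b (-0.94, adjusted p = 0.639). Jun was at -0.82 and Egr1 at -0.69, and neither was called. Summed over the list, the level was 1835 to 5093 CPM in the bottom and 1323 to 2972 CPM in the top set. The part of dispersion in this difference was not tested.

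Of the list for metallothioneins, iron and redox, 15 of 20 genes were tested and 3 were called, all lower, with a median of -0.09. Besides Gpx3 and Txnip it was Mt2, a metal-binding metallothionein, which fell by 0.72 ± 0.21 (SE, adjusted p = 0.0309), lower in 6 of 8 samples. Mt2 lost its call without control replicate 2, control replicate 3 (a fall of 0.44) or PPTx replicate 1, and without replicating cells its fall was 0.45 (adjusted p = 0.729). It was at 802 CPM in the 21 replicating cells of the bottom set and at 275 CPM in the 182 cells of neither kind. Ferritin, superoxide dismutase and peroxiredoxin genes of the list were not called.

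Of the genes lower in the top set, Tubb5, Arl6ip1 and Calm2, like Mt2, ran high in the pooled replicating cells of the bottom set. Tubb5, a β-tubulin, fell by 0.90 ± 0.20 (SE, adjusted p = 0.00338, lower in 7 of 8 samples). It was at 1684 CPM in the 21 replicating cells of the bottom set and at 217 CPM in the 182 cells of neither kind, and without replicating cells its fall was 0.46 (adjusted p = 0.463). Within depth strata the fall of Tubb5 was 0.80 and did not pass (adjusted p = 0.41). Arl6ip1, an ER-shaping membrane protein, was at 615 and 166 CPM in those cells and fell by 1.20 ± 0.27 (SE, adjusted p = 0.00338, lower in 7 of 8 samples) and by 0.81 without replicating cells (adjusted p = 0.202). Calm2, a calmodulin gene, was at 1163 and 319 CPM and fell by 0.72 ± 0.18 (SE, adjusted p = 0.00904, lower in 8 of 8 samples) and by 0.46 without replicating cells (adjusted p = 0.273). Within depth strata the fall of Calm2 was 0.34 (adjusted p = 0.485), and DESeq2 did not call it (-0.80, adjusted p = 0.0857). Ptges3 and Dbpht2 fell as well and did not run high in those cells. Ptges3, an HSP90 co-chaperone, was at 187 CPM in the replicating cells of the bottom set and at 214 CPM in those of neither kind. It fell by 0.95 ± 0.25 (SE, adjusted p = 0.0181, lower in 8 of 8 samples) and lost its call without PPTx replicate 2, within depth strata (adjusted p = 0.148) and in DESeq2 (adjusted p = 0.193). It kept its call without replicating cells (-0.91, adjusted p = 0.0466) and lost it without both kinds (-0.85, adjusted p = 0.0953). Dbpht2 was at 107 CPM in the replicating cells, at 94.6 CPM in those of neither kind and at 336 CPM in the 26 cells with other hormones. It fell by 1.57 ± 0.41 (SE, adjusted p = 0.0171, lower in 8 of 8 samples), and lost its call without control replicate 2, control replicate 3 or PPTx replicate 1. Dbpht2 also lost it without replicating cells (-1.425, adjusted p = 0.0723) and in DESeq2 (-1.76, adjusted p = 0.113), with falls about as large. Without the cells with other hormones it was too sparse to be tested. Of 38 cell cycle genes 6 were tested and 1 was called each way. The gene called higher was Ccnd2, the D-type cyclin most used by β-cells, which rose by 0.35 ± 0.10 (SE, adjusted p = 0.0262, 7 of 8 samples). Its call was lost without control replicates 2 or 4 or PPTx replicates 1, 2 or 3. Top2a, a topoisomerase of dividing cells, had 52 UMIs in the bottom and 9 in the top set.

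Among genes higher in high-insulin cells, the one called in every setting was Cox6a2, an isoform of a cytochrome c oxidase subunit of the respiratory chain. It was at 443, 259, 282 and 278 CPM in the bottom set of the controls and at 297, 268, 220 and 349 CPM in that of PPTx. In the top set it was at 843, 647, 418 and 536 CPM in the controls and at 719, 675, 534 and 473 CPM in PPTx. Control replicate 1 was highest in both sets, and with its bottom set set aside the ranges did not overlap. Cox6a2 was 2.05-fold higher (log2 fold change 1.04 ± 0.16, SE, adjusted p = 6.58e-08, higher in 8 of 8 samples). In cells of neither kind it was at 314 CPM in the bottom and 586 CPM in the top set, and in the 26 cells with other hormones at 64.7 CPM. The values across the 24 settings lay between 0.85 and 1.22.

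Of 83 nuclear genes of oxidative phosphorylation 68 were tested, and 50 had estimates above 0 with a median of 0.17 against 0.04 over all genes. Over all 1928 genes 1088 had estimates above 0 (56.4%). The count was also 50 under TMM scaling and in DESeq2, beside 49.6% and 49.5% of all genes. Of the 68 genes, 2 were called higher, Cox6a2 among them, and none was called lower. Uqcc2, an assembly factor of complex III, rose by 0.61 ± 0.13 (SE, adjusted p = 0.00145, 7 of 8 samples) and lost its call without PPTx replicate 2 and with larger sets (0.37). Atpif1, the inhibitor of the mitochondrial ATP synthase, rose by 0.50 ± 0.14 (SE, adjusted p = 0.0291, 8 of 8 samples), a call lost without control replicates 2 or 4 or PPTx replicates 2 or 4, and at 0.30 on split UMIs (adjusted p = 0.521). Of 17 glycolysis genes 5 were tested, all with estimates above 0, and Pkm, pyruvate kinase, was the 1 called, with a rise of 0.45 ± 0.13 (SE, adjusted p = 0.0262, 7 of 8 samples). Leaving out any sample other than control replicates 1 and 3 lost the call of Pkm, and within depth strata its rise was 0.25 (adjusted p = 0.463). Transcripts encoded by the mitochondrial genome were not analysed here.

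A few genes of the secretory pathway were called higher, and none of these calls held in every setting. Of the ER chaperone and unfolded protein response list 32 of 37 genes were tested, with a median of 0.11. Of the 32 genes, 3 were called higher and none lower, beside 1.5% of all genes called higher and 0.674% called lower. Estimates lay above 0 for 22 of the 32 (68.75%), beside 56.4% of all genes tested. Under TMM scaling 18 lay above 0 (56.25%, beside 49.6% of all genes), and in DESeq2 17 (53.1%, beside 49.5%). Fkbp11, a peptidyl-prolyl isomerase of the ER, was at 322, 130, 333 and 423 CPM in the bottom and at 130, 450, 611 and 372 CPM in the top set of the controls. The PPTx samples had 450, 646, 541 and 642 CPM in the bottom and 1127, 1006, 962 and 834 CPM in the top set. All 4 PPTx samples were higher in the top set and did not overlap, while control replicates 1 and 4 were lower there. Over the 8 samples it rose by 0.71 ± 0.14 (SE, adjusted p = 2.44e-04), and by 0.72 without cells of either kind (adjusted p = 2.55e-04), but was not called by DESeq2 (0.64, adjusted p = 0.313). Ero1lb, the β-cell oxidoreductase that renews disulfide donors in the ER, was at 1329, 1796, 1817 and 2744 CPM in the bottom and at 1556, 3434, 3139 and 2458 CPM in the top set of the controls. The PPTx samples had 1677, 3170, 1732 and 1744 CPM in the bottom and 2303, 3373, 2405 and 2705 CPM in the top set. The top set was higher in 7 samples and lower in control replicate 4. Ero1lb rose by 0.43 ± 0.10 (SE, adjusted p = 0.00351) and lost its call without control replicate 2. It was at 0.29 without cells of either kind (adjusted p = 0.11) and was not called by DESeq2 (0.39, adjusted p = 0.561). Edem2, which acts in the degradation of misfolded glycoproteins, rose by 0.61 ± 0.18 (SE, adjusted p = 0.044, 7 of 8 samples), a call held in 6 of 23 settings. The main chaperone Hspa5 was at 0.04 (adjusted p = 0.916).

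The promoters of Fkbp11 and Ero1lb are shown because both genes were called among the ER genes. The first spans chr15:98728149-98728448 on the minus strand and is the outer of 2 windows for that gene. The second, for Ero1lb under its RefSeq name Ero1b, spans chr13:12565633-12565932 on the plus strand, both from RefSeq on GRCm38.p6 with capitals as for Ins1.
Fkbp11: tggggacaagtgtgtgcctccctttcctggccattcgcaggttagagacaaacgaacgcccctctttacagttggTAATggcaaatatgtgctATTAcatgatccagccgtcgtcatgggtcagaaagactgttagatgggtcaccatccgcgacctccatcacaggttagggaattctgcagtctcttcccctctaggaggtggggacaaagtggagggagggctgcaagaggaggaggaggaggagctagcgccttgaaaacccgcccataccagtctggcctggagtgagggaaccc
Ero1b: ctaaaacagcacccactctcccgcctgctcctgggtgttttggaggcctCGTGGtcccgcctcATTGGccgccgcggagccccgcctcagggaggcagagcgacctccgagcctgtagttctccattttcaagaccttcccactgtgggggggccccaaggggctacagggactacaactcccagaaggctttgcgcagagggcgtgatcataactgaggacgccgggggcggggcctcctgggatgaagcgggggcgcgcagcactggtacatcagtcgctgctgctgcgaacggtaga
The window of Fkbp11 held 2 TAAT matches and none of the other motifs, and that of Ero1b held 1 CCACG and 1 CCAAT match and no TAAT, so the pair shared none of the 4 motifs.

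Of the list for translocon, signal peptidase and glycosylation, 30 of 32 genes were tested, with a median of 0.10. Of the 30 genes, 2 were called higher, beside 1.5% of all genes, and none was called lower. Dad1, a subunit of the oligosaccharyltransferase, rose by 0.44 ± 0.11 (SE, adjusted p = 0.0148, 7 of 8 samples), and Sec61b, a subunit of the translocon, by 0.40 ± 0.11 (SE, adjusted p = 0.0262, 7 of 8 samples). Dad1 lost its call without control replicate 2 or PPTx replicate 1, and Sec61b without control replicates 1 or 2 or PPTx replicates 1 or 2. H13, the signal peptide peptidase, rose by 0.47 ± 0.14 (SE, adjusted p = 0.0445, 8 of 8 samples), a call that stood without control replicate 3 and was lost without each of the other samples. Of 30 genes for transport from the ER to the Golgi 29 were tested and none was called by edgeR or DESeq2, with 4 at an unadjusted p under 0.05. Surf4, a cargo receptor, was at 0.15 ± 0.11 and Lman1, the lectin ERGIC-53, at 0.11 ± 0.11 (SE).

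Iapp, the most abundant granule cargo after insulin, differed by less than the spread over samples. It was at 119622 CPM ± 7892 (SD, n = 8) in the bottom and at 115992 CPM ± 8639 in the top set, with a log2 fold change of -0.05 ± 0.06 (SE, adjusted p = 0.806). Of 21 genes for granule cargo and prohormone processing 17 were tested and 1 was called. At an unadjusted p under 0.05 there were 9, beside 11.5% of all genes tested, and estimates lay above 0 for 8 and below 0 for 9. The gene called was Pcsk1n, the granule peptide proSAAS, at 2183 CPM ± 559 (SD, n = 8) in the bottom and 2810 CPM ± 664 in the top set. Pcsk1n rose by 0.34 ± 0.10 (SE, adjusted p = 0.029, 7 of 8 samples). It lost its call without control replicate 1 or PPTx replicates 2, 3 or 4, under TMM scaling (0.295, adjusted p = 0.0964) and without replicating cells (0.32, adjusted p = 0.0866). Within depth strata the rise of Pcsk1n was 0.16 (adjusted p = 0.585). None of 12 exocytosis genes tested was called by edgeR or DESeq2 (2 at an unadjusted p under 0.05), with Syt13 at -0.12 ± 0.11 and Sytl4 at 0.04 ± 0.15 (SE), the latter below 0 under TMM scaling. Of 22 genes for glucose sensing and maturity 13 were tested, with 2 called higher, 1 lower and a median of 0.29. Besides Ero1lb and Tmem27 it was Abcc8, the SUR1 subunit of the ATP-sensitive potassium channel, which rose by 0.41 ± 0.12 (SE, adjusted p = 0.033, 7 of 8 samples). Its call was lost without control replicate 2 or any PPTx sample, under TMM scaling (0.36, adjusted p = 0.094) and without replicating cells (0.33, adjusted p = 0.157). Within depth strata the rise of Abcc8 was 0.18 (adjusted p = 0.629). Of 21 transcription factors of β-cells 8 were tested and none was called by edgeR or DESeq2 (2 at an unadjusted p under 0.05), 7 having estimates below 0, with Neurod1 at -0.02 ± 0.13 and Pax6 at -0.28 ± 0.16 (SE).

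Of 86 cytosolic ribosomal protein genes 77 were tested, and 3 were called higher and none lower. Estimates lay above 0 for 59 (76.6%), beside 56.4% of all genes tested. Under TMM scaling it was 53 (68.8%, beside 49.6% of all genes), and in DESeq2 51 (66.2%, beside 49.5%). Rpl36 rose by 0.51 ± 0.14 (adjusted p = 0.029), Rplp0 by 0.41 ± 0.11 (adjusted p = 0.0181) and Rplp1 by 0.38 ± 0.10 (SE, adjusted p = 0.0189), in 7, 8 and 7 of 8 samples. All 3 lost their calls without control replicate 2, PPTx replicate 1 or PPTx replicate 2, and Rplp0 also without PPTx replicate 4. Under TMM scaling none of the 3 was called (0.46, 0.37 and 0.33, adjusted p = 0.0742, 0.0607 and 0.0713). Reads of such genes can be shared with their pseudogenes, so single members are uncertain. Ttr, the thyroxine carrier transthyretin, which α-cells and β-cells both make, was at 3638 CPM ± 553 (SD, n = 8) in the bottom and 4644 CPM ± 674 in the top set. It rose by 0.36 ± 0.09 (SE, adjusted p = 0.00946) in 8 of 8 samples. Among the samples left out in turn, Ttr lost its call without control replicate 2, and DESeq2 did not call it (0.31, adjusted p = 0.377).

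Further genes with the largest rises had no list in common. Tmem219 and Tmem229b passed the filter on low counts within the top set only, so they could enter the test through the set where they were high. Tmem219, a membrane protein, was at 40.3, 55.6, 128 and 96.7 CPM in the bottom and at 259, 28.1, 150 and 238 CPM in the top set of the controls. The PPTx samples had 61.4, 104, 73.3 and 147 CPM in the bottom and 278, 286, 150 and 225 CPM in the top set. Control replicate 2, with 1 UMI in its top set, was lower there, and the ranges of the other samples nearly met at 147 and 150 CPM. Tmem219 rose by 1.12 ± 0.26 (SE, adjusted p = 0.00338), losing its call without PPTx replicate 2 and within depth strata (0.89, adjusted p = 0.0605). Nenf, which encodes the secreted protein neudesin, rose by 0.64 ± 0.16 (adjusted p = 0.00921, 8 of 8 samples), a call lost without PPTx replicates 2 or 3, within strata (0.46, adjusted p = 0.148) and on split UMIs (0.42, adjusted p = 0.329). Isg20, an exonuclease, rose by 0.61 ± 0.16 (adjusted p = 0.0148, 8 of 8 samples), a call lost without control replicates 2 or 4 or PPTx replicate 4, and within strata its rise was 0.30 (adjusted p = 0.482). Entpd3, an ectonucleotidase of the β-cell surface, rose by 0.70 ± 0.20 (SE, adjusted p = 0.0274, 7 of 8 samples) and was called in 9 of 23 settings, with 0.43 and no call in larger sets. Tmem160 rose by 0.80 ± 0.23 (SE, adjusted p = 0.033) and Tmem229b by 0.92 ± 0.28 (SE, adjusted p = 0.0445), with calls in 10 of 23 and 3 of 22 settings and the latter at 0.55 within strata (adjusted p = 0.41). Vstm2l, Fam151a, Wnt4, Gng12 and Prss53 rose by 0.37 to 0.61 and were called in 5 to 15 of 24 settings. With thinned cells Prss53 was at 0.04 (adjusted p = 0.924) and Vstm2l at 0.23 (adjusted p = 0.747), against 0.47 and 0.61, and without PPTx replicate 2 Wnt4 was at 0.39 against 0.59 and was not called.

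In the remaining lists few genes or none moved. None of 11 genes of the integrated stress response that were tested was called by edgeR or DESeq2 (1 at an unadjusted p under 0.05), with Atf4 at 0.35 ± 0.16 and Atf5 at 0.02 ± 0.18 (SE). Likewise none was called of 5 antigen presentation genes (H2-K1 -0.02, Tapbp 0.02), 20 proteasome genes (Psmb4 0.17, Psmb1 -0.11), 5 cholesterol synthesis genes (Sqle 0.08) and 3 nuclear-retained RNAs (Malat1 0.22, Meg3 0.0038), where 0, 4, 1 and 1 genes were at an unadjusted p under 0.05. The signs of Atf5, Tapbp and Meg3 turn under TMM scaling. Of 13 cytoskeleton genes Tubb5 was the 1 called, and Krt7, a keratin also counted as a ductal marker, was at 0.22 ± 0.16 (SE).

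**Figure D4:**
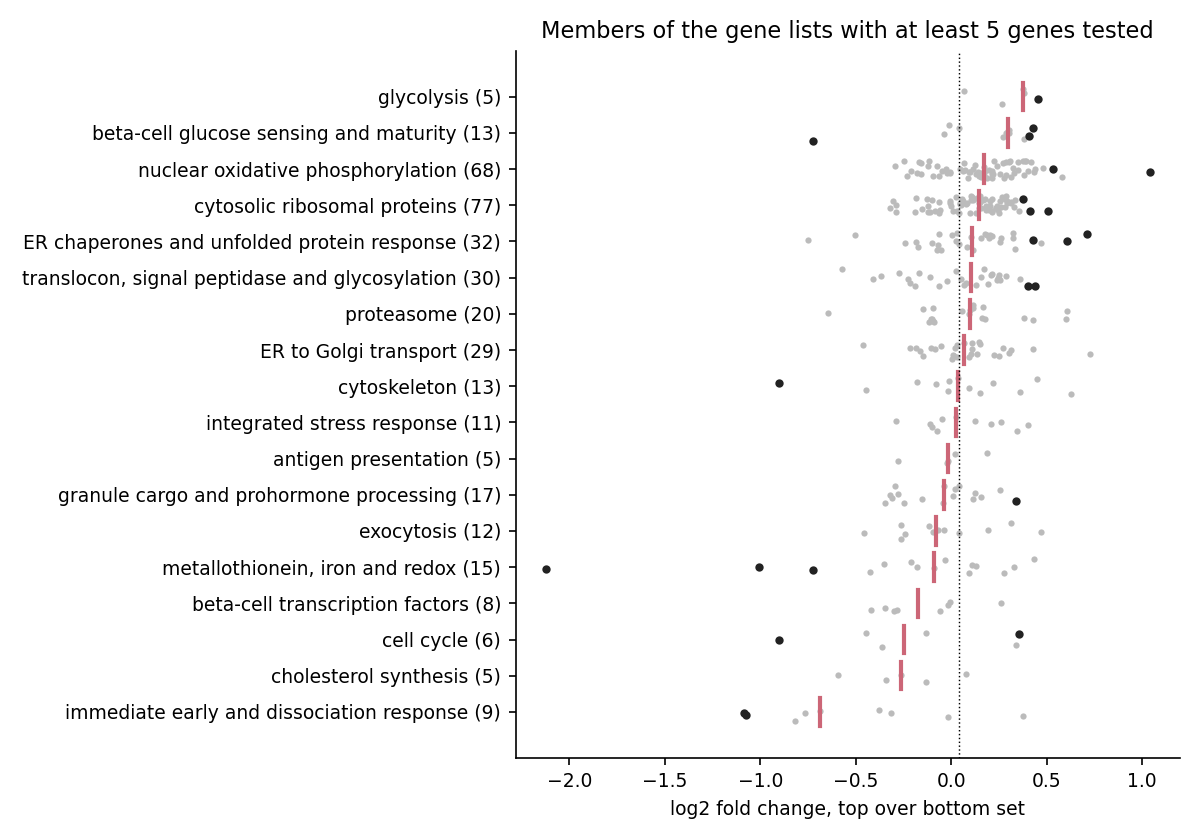
Log2 fold change of the top over the bottom set (horizontal axis) for the members of each list with at least 5 genes tested, with the number tested in brackets, called genes in black, the median of each list as a red bar and the median of all genes (0.04) as a dotted line. Immediate early genes lie lowest, with a median of -0.69, and the 68 oxidative phosphorylation genes have a median of 0.17.

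The cells between the sets, which were not used in the comparison, lay in between for the genes given here other than Iapp. These are means over the 8 samples. Mean Tmem27 was 1053, 918, 777 and 624 CPM from the bottom to the top set, and mean Gpx3 was 492, 263, 179 and 101 CPM. Mean Cd81 was 188, 119, 66.8 and 38.8 CPM and mean Txnip 916, 497, 484 and 422 CPM, so most of the fall of Txnip came with the first step. Mean Pyy was 3683 CPM in the bottom set and 331, 284 and 265 CPM in the others, a step rather than a slope. In the other direction mean Cox6a2 was 299, 390, 551 and 606 CPM, mean Ttr 3638, 3927, 4248 and 4644 CPM and mean Pkm 600, 680, 761 and 830 CPM. Mean Ero1lb was 2001 CPM in the bottom set and 2571, 2627 and 2672 CPM in the others. Mean Iapp, at 119622, 122384, 118505 and 115992 CPM, had no such order. Over all 8 samples mean Abcc8 rose and mean Arl6ip1 fell in order, but neither kept that order within the controls or within PPTx.

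Whether PPTx changes the difference between the extremes was tested with an interaction term over all 1928 genes. No gene was called (0%), with 84 genes at an unadjusted p under 0.05 and 0 called by DESeq2 as well. Of the genes called between the sets, Wnt4, Tubb5 (1.04, unadjusted p = 0.0229) and Dad1 (-0.49, unadjusted p = 0.035) had an interaction at an unadjusted p under 0.05, none passing adjustment. Leaving aside the hormones that the rule capped, the named gene with the smallest p was Gc, with a log2 interaction of -1.45 (adjusted p = 0.56). Wnt4 followed with 0.96 (adjusted p = 0.68), as PPTx samples had 183 to 367 CPM in the bottom and 343 to 586 CPM in the top set, while the controls had 392 to 616 and 194 to 626 CPM.

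The count was 1 or 2, with Sst or Ppy, when low counts were not filtered, cells were thinned, the insulin floor was 30%, other hormones were held under 1% or replicating cells were left out. Between 1 and 3 genes were called for the interaction when single samples were left out, except without PPTx replicate 1 or PPTx replicate 2, where none was. It was 1 without control replicates 1, 2 or 3 or PPTx replicate 3, 2 without control replicate 4 and 3 without PPTx replicate 4. Sst was among them in 5 of these 6 cases, and Iqgap1, Pdyn and Car15 made up the rest, genes that were chosen after their values were seen. The rule capped Sst and Ppy, so their calls are given as counts and nothing is read from them.

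PPTx and control were then compared within each extreme, with 4 samples each. In the top set 6 of 1220 genes were called (0.492%), 4 higher (0.328%) and 2 lower (0.164%) in PPTx, with 104 at an unadjusted p under 0.05. In the bottom set 12 of 1860 were called (0.645%), 9 higher (0.484%) and 3 lower (0.161%), with 194 at an unadjusted p under 0.05. The counts moved from 2 without PPTx replicate 1 to 11 without control replicate 3 and 16 without PPTx replicate 4 in the top set. In the bottom set they moved from 3 without control replicate 2, 6 without PPTx replicate 2 and 7 without PPTx replicate 1 to 19 without PPTx replicate 4. These comparisons share no cell, but they share samples, and a gene called in one set alone is not thereby shown to differ between sets. Within depth strata no gene was called in the top set and 4 were called in the bottom set, all among the 12. Without replicating cells 4 genes were called in the top and 5 in the bottom set, and without both kinds of cell 6 and 9, of which 5 and 6 were among the calls above. When cells were ranked on one part of their UMIs and tested on the other, none of the 5 top-set genes that could be tested there kept its call. The summed level of Ppy and Pyy, the markers of PP-cells, moved with the group, with overlap in the bottom set alone. It had a median of 3532 CPM (765 to 6201) in the controls and 11900 CPM (4309 to 15200) in PPTx in the bottom set, and of 349 CPM (182 to 492) and 1593 CPM (598.5 to 9145) in the top set. The 4 δ-cell markers had medians of 1575 and 383 CPM in the bottom and 106 and 286.5 CPM in the top set. The part of these markers in the results of PPTx was not tested.

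Metallothioneins were lower after PPTx in the bottom set, and Mt2 in the top set as well. Mt1 was at 1691, 1667, 1374 and 1330 CPM in the bottom set of the controls and at 695, 296, 495 and 514 CPM in that of PPTx, without overlap. It fell by 1.61 ± 0.22 (SE, adjusted p = 1.45e-06) and kept its call when any sample was left out. In the top set it was at 1556, 1154, 514 and 1475 CPM in the controls and at 261, 286, 385 and 744 CPM in PPTx, a difference of -1.47 ± 0.40 (SE) that did not pass (adjusted p = 0.212). Mt2 fell by 1.74 ± 0.29 in the bottom (SE, adjusted p = 1.30e-04) and by 1.64 ± 0.38 in the top set (SE, adjusted p = 0.0107). The latter call was lost without control replicate 4 or PPTx replicate 1. It was also lost in DESeq2 (-1.70, adjusted p = 0.0944) and within depth strata (-1.61, adjusted p = 0.0843), with falls about as large. In the bottom set Mt2 lost its call on split UMIs (adjusted p = 0.0785) and without replicating cells (adjusted p = 0.143), while Mt1 was called in all 24 settings. Mt1 and Mt2 encode related proteins, and whether reads were shared between them was not tested. The interaction was 0.18 for Mt1 and 0.11 for Mt2, with an unadjusted p of 0.562 and 0.81.

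A few genes of ER folding were called higher after PPTx, with calls that did not hold in every setting. Fkbp11 was at 391 CPM ± 200 (SD, n = 4) in the top set of the controls and at 982 CPM ± 121 in that of PPTx, a 2.2-fold rise (1.14 ± 0.24, SE, adjusted p = 0.00433) that lost its call without PPTx replicate 1. Nor was it called within depth strata (1.04, adjusted p = 0.0843), on split UMIs (0.92, adjusted p = 0.217) or with thinned cells (1.19, adjusted p = 0.0936). Its level in the bottom set was 302 CPM ± 123 and 570 CPM ± 93.6, a difference of 0.87 ± 0.25 (SE, adjusted p = 0.0995). Ppib, the ER cyclophilin B, rose by 1.13 ± 0.26 in the top set (SE, adjusted p = 0.0107), without overlap of the groups, and was at 0.77 ± 0.24 in the bottom set (adjusted p = 0.159). Its call in the top set was lost without control replicate 3 or PPTx replicate 1 and in DESeq2 (1.12, adjusted p = 0.0783). It was also lost within strata (0.92, adjusted p = 0.14), on split UMIs (0.90, adjusted p = 0.217) and with thinned cells (0.89, adjusted p = 0.164). Sdf2l1, an ER stress-inducible cofactor of chaperones, rose by 1.14 ± 0.24 in the bottom set (SE, adjusted p = 0.00693). Sdf2l1 lost that call without control replicate 2 or PPTx replicate 2 and within strata (1.03, adjusted p = 0.0633), and was at 0.76 ± 0.25 in the top set (adjusted p = 0.202). Hspa5, the chaperone BiP, is named outside the rule and was chosen after its values were seen. It was at 1632 CPM ± 405 (SD, n = 4) in the bottom set of the controls and at 2810 CPM ± 283 in that of PPTx, and rose by 0.75 ± 0.19 (SE, adjusted p = 0.0428). The call of Hspa5 stood in 11 of 24 settings and was lost without control replicates 1 or 2 or PPTx replicates 1, 2 or 3. It was also lost in DESeq2 (0.77, adjusted p = 0.0678), within strata (0.71, adjusted p = 0.14) and on split UMIs (0.61, adjusted p = 0.203). The same held with thinned cells (0.67, adjusted p = 0.274) and without replicating cells (0.75, adjusted p = 0.0608). In these last settings the rise stayed between 0.61 and 0.77. In the top set Hspa5 was at 1845 CPM ± 251 and 2748 CPM ± 251, a difference of 0.56 ± 0.20 (SE, adjusted p = 0.263). Over the ER chaperone list, 2 of 28 genes tested were called higher in the top set, beside 0.328% of all genes, with 23 estimates above 0, beside 50.4% of all genes, and a median of 0.21. Of 30 genes tested in the bottom set 4 were called higher, beside 0.484% of all genes, with 27 estimates above 0, beside 47.7% of all genes, and a median of 0.50. The medians over all genes were 0.0042 and -0.02. No member of the list was called lower in either.

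Of the other genes called, Dapl1 was the 1 called higher at both extremes besides Mt2, which was lower at both. Dapl1 was at 121, 296, 341 and 351 CPM in the bottom set of the controls and at 808, 805, 651 and 1120 CPM in that of PPTx. It rose by 1.44 ± 0.23 (SE, adjusted p = 8.66e-05) and kept its call when any sample was left out, and in the top set it rose by 0.94 ± 0.24 (SE, adjusted p = 0.0366), a call held in 11 of 24 settings and lost without control replicates 1, 2 or 4 or PPTx replicates 1 or 3. Rgs2, a regulator of G-protein signalling, rose by 1.17 ± 0.24 in the top set (SE, adjusted p = 0.00433), a call lost without control replicate 2, within strata (0.96, adjusted p = 0.168), on split UMIs (0.85, adjusted p = 0.217) and with thinned cells (1.04, adjusted p = 0.136). The sixth gene called in the top set was Gcg, which the rule capped and which is therefore given as a description, with 114 UMIs in the controls and 61 in PPTx. Also in the bottom set Srm, spermidine synthase, rose by 1.98 ± 0.45 (adjusted p = 0.0169), Car15, a carbonic anhydrase, by 1.67 ± 0.35 (adjusted p = 0.00693) and Gc, the vitamin D binding protein, by 1.35 ± 0.35 (SE, adjusted p = 0.0428). Wnt4, a secreted ligand of mature β-cells, fell by 1.03 ± 0.26 there (SE, adjusted p = 0.0428). Each of these 4 lost its call when some samples were left out, Srm without control replicates 2 or 3 or PPTx replicates 1, 2 or 3, Car15 without control replicates 2 or 3 or PPTx replicate 1, Gc without control replicates 2, 3 or 4 or PPTx replicates 1 or 3, and Wnt4 without any sample other than control replicate 3 and PPTx replicate 4. Gc was called in 7 of 23 settings and not by DESeq2 (1.35, adjusted p = 0.142), within strata (1.41, adjusted p = 0.0826) or without replicating cells (1.12, adjusted p = 0.209). Wnt4 was called in 10 of 23 settings and not by DESeq2 (-0.99, adjusted p = 0.201), on split UMIs (-0.74, adjusted p = 0.373) or within strata, where its fall was 0.65 (adjusted p = 0.496). Srm and Car15 were called in 12 of 21 and 18 of 23 settings.

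**Figure D5:**
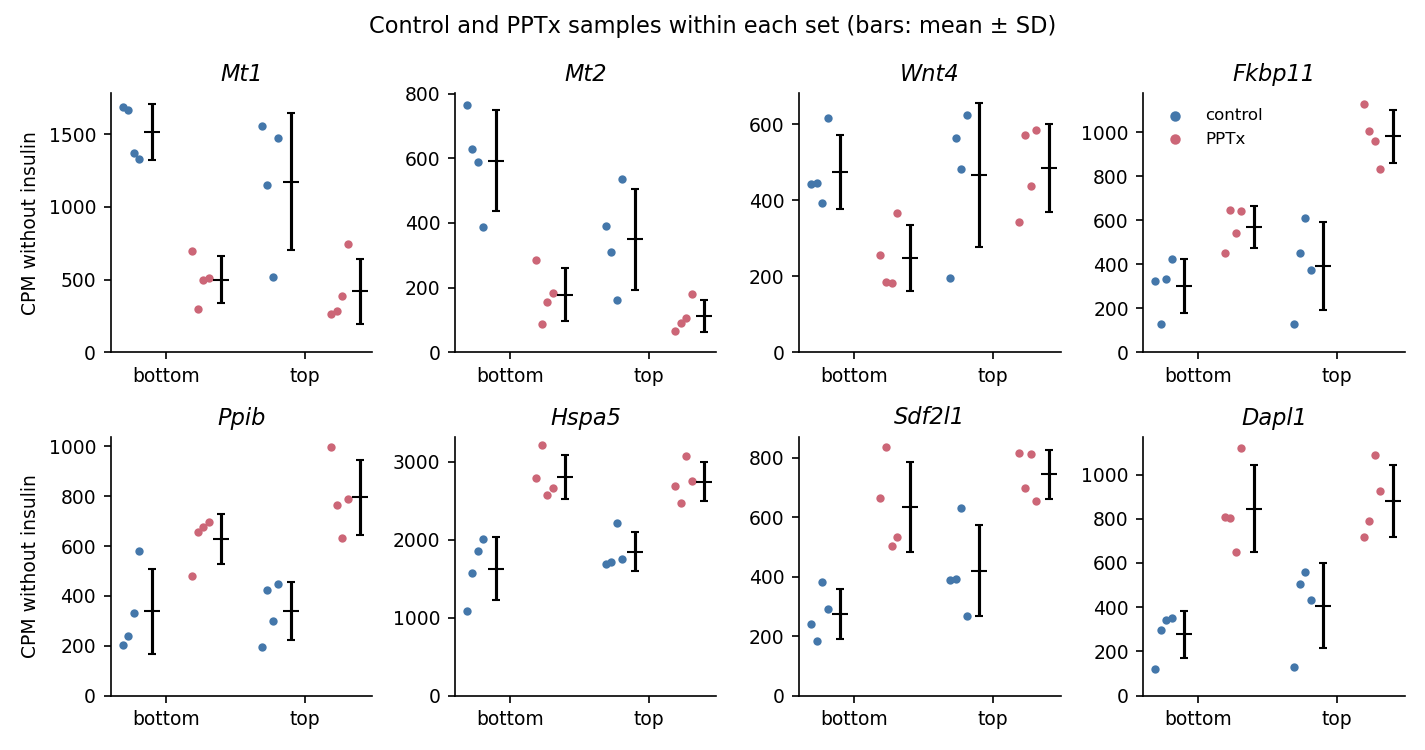
CPM without insulin (vertical axis, from 0) of 8 genes in the bottom and top sets (horizontal axis) of 4 control (blue) and 4 PPTx (red) samples, with 1 point per sample and the mean ± SD as a bar beside it. The means of Mt1 and Mt2 are lower and those of Hspa5, Ppib, Sdf2l1 and Dapl1 higher after PPTx in both sets, and Fkbp11 stands highest in the top set of PPTx.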

How the data were processed

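Single cells of dispersed islets were captured in droplets, and the authors deposited 8 tables of UMI counts per cell and gene, whole numbers that were not normalised. They covered 24421 genes and 1240 cells. The authors aligned reads to mm10 with Cell Ranger after bcl2fastq, per the methods and the submitters' processing notes. The labels name a Chromium kit and the methods a ddSEQ workflow, a difference that could not be settled here. Total deposited counts per sample ranged from 236645 to 1580152.

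The members and gene lists were chosen with earlier results of these data known. Cells above 3000 genes or 20000 UMIs were left out (8 cells). Counts of the members without Ins1 and Ins2 were summed per sample and set and tested in edgeR 4.0.16 (R 4.3.3) with the robust quasi-likelihood test, filterByExpr, library sizes equal to the remaining UMIs and no further scaling. Of the called genes named, Arl6ip1, Cd81, Dbpht2, Fos, Gpx3, Hspa1b, Ptges3, Pyy and Tubb5 did not pass filterByExpr in the fit within the top set. Tmem219 and Tmem229b did not pass it within the bottom set. Each of these genes could thus enter the comparison of the sets through the set where it was high. Adjusted p-values are Benjamini-Hochberg over all genes of a fit, and the threshold was 0.05. The top and bottom sets were compared with the sample as a term, the PPTx change as an interaction with set, and PPTx with control within each set. Single values were tested with exact permutations or sign flips (scipy 1.17.1). Fits were tested on simulated data first.

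The text names, for each direction, at most 8 called genes, taken by size of change among those with an average log2 CPM of at least 6 and one direction in at least 7 of 8 samples. For each list at most 4 called genes were named or, with none called, the most abundant pair. For PPTx at most 5 called genes were named in each direction. Alternatives were TMM scaling, DESeq2 1.42.0, other filters, member sizes, gates and depths, and leaving out each sample. Promoters came from RefSeq on GRCm38.p6. Mitochondrially encoded genes were not analysed here. A few genes that the naming rule selects are not reported here.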

Additional observations from a re-analysis of the deposited data

Results flagged for a closer look

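Over 60 groups of 4 samples, the highest or lowest sample was compared with the rest, and 3 stood apart, where chance alone gives about 5% of groups. Cd81 in the top set of PPTx replicate 4 was at 112.7 CPM, against 21.4 to 32.7 CPM in the other PPTx samples. Cox6a2 in the bottom set of control replicate 1, the sample with the fewest cells, was at 443 CPM, against 259 to 282 CPM in the other controls. Ero1lb in the bottom set of PPTx replicate 2, the sample with the lowest insulin shares, was at 3170 CPM, against 1677 to 1744 CPM in the other PPTx samples.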

How the results depend on the processing

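Each of the 42 genes called between the sets kept its direction in every alternative in which it was tested, but the count moved. It was 26 under TMM scaling, 8 with DESeq2, 24 with no filter on low counts, 21 when cells were ranked on one part of their UMIs and tested on the other, 16 with cells thinned to equal UMIs and 18 with sets taken within depth strata. It was 21 without replicating cells, 26 with 5 other hormones together under 1% and 12 with both, the last pair of settings chosen after seeing the data, and 19 to 52 when samples were left out in turn. The cause of these moves was not tested, except that splitting or thinning the UMIs leaves fewer genes to test. The smallest sum per sample and set held 15424 UMIs.

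For the PPTx change of the set difference, 0 genes became 1 with no filter, thinned cells, an insulin floor of 30%, no replicating cells or 5 hormones under 1%, and 2 with the other hormones each under 1%, with 0 to 3 when samples were left out. For PPTx in the top set, 6 became 3 with DESeq2, 11 with larger sets, 2 with ranking and testing on separate UMIs, 2 with thinned cells and 0 within depth strata, with 2 to 16 when samples were left out. In the bottom set, 12 became 5 with DESeq2, 7 with larger sets, 3 with separate UMIs, 4 with thinned cells, 4 within depth strata, 5 without replicating cells and 6 without the deepest cells, with 3 to 19 when samples were left out. Genes per cell differed by 1.22 without replicating cells, by -398 without thinning, and by -3.75 to 0.78 when samples were left out. The difference was -5.84 with the other hormones each under 1% and -5.74 with 5 hormones together under 1% (p = 0.18 each, exact sign-flip test). Without replicating cells as well as those with 5 hormones it was -3.28. The share difference ranged from -4.04 to -0.983 points and that of the Ins1 part from 0.0634 to 0.547 points when samples were left out.

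With the replicate number as a block the counts were 53 between the sets, 1 for the interaction, 12 in the top and 28 in the bottom set, and the share difference stayed -2.96 points. Deviations of same-numbered samples correlated at 0.0232 to 0.172 in the bottom, 0.018 to 0.149 in the top set and 0.0199 to 0.05 in their difference. For other pairs the values were -0.136 to 0.0867, -0.125 to 0.0455 and -0.034 to 0.0148. All same-numbered values were thus positive, and in the difference each lay above those of all other pairs. The methods describe no pairing by replicate number, and the main fits have no block for it. Whether same-numbered samples shared a batch was not tested.

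Log2 estimates of genes that were not called changed sign as follows. Neurod1 became 0.02 with the block, within strata or with other hormones under 1%, 0.04 thinned, 0.03 without replicating cells, 0.0032 without the deepest cells, 0.06 with 5 hormones under 1%, 0.05 with both, and -0.09 to 0.09 without single samples. Sytl4 became -0.0029 under TMM, -0.10 on separate UMIs or with 5 hormones under 1%, -0.07 with hormones under 1% or with both, and -0.05 to 0.18 without single samples. Atf5 became -0.02 under TMM, -0.05 with DESeq2 or the 30% floor, -0.08 with the block or without the deepest cells, -0.03 on separate UMIs, -0.07 with hormones under 1%, -0.18 with 5 hormones, -0.04 with both, and -0.07 to 0.13 without single samples. Tapbp became -0.02 under TMM, -0.04 with DESeq2, -0.06 on separate UMIs, -0.0028 with 5 hormones, -0.01 with both, and -0.04 to 0.16 without single samples. Meg3 became -0.04 under TMM, -0.03 with DESeq2, -0.06 thinned or without replicating cells, -0.15 within strata, -0.01 without the deepest cells, -0.0078 with both, and -0.07 to 0.09 without single samples. Lman1 became -0.09 thinned and -0.01 with both, Psmb4 -0.05 on separate UMIs and -0.06 thinned, and Malat1 -0.13 thinned. Psmb1 became 0.04 with larger sets, 0.15 on separate UMIs, 0.02 within strata and -0.27 to 0.03 without single samples. Sqle became -0.08 within strata and -0.05 to 0.20 without single samples, and H2-K1 -0.10 to 0.06 without single samples.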
